A study of Mus musculus with 60 samples.

Results

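Hyaluronan synthases and extracellular proteoglycans were described across all groups of 2 count tables from mouse fibroblasts. The family held 10 genes, picked by name from the 56980 gene identifiers of each table: the hyaluronan synthases Has1, Has2 and Has3, the large aggregating proteoglycans Vcan (versican) and Acan (aggrecan), the small leucine-rich proteoglycans Dcn (decorin), Bgn (biglycan), Lum (lumican) and Fmod (fibromodulin), and Prg4 (lubricin). All 10 were found in both tables. The rule is a list of gene names with no measured value in it, but the list was drawn up with earlier results of these data known.

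Hyaluronan is a long, unsulfated sugar chain that the Has enzymes spin out through the plasma membrane from UDP-sugars. Versican and aggrecan bind that chain through their globular ends and carry chondroitin sulfate, and together they make a hydrated, compressible matrix. The small leucine-rich proteoglycans sit on collagen fibrils and limit their diameter, and decorin and biglycan also bind TGFb. Lubricin is a mucin-like glycoprotein that coats cartilage and tendon surfaces and lowers friction.

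The study followed fibroblasts with a defect in the DNA repair gene Ercc1 through early OSKM reprogramming and, separately, through inhibition of TGFb family receptors. In the reprogramming table, D/KO tail tip fibroblasts (genotype 4FJ ERCC1 d/-, from a male of 8 weeks) and WT tail tip fibroblasts (4FJ +/- OCT4-GFP, from a female of 22 weeks) were sampled on days 0, 2 and 4 of 2 µg/ml doxycycline. Both lines carried a doxycycline-inducible Oct4, Sox2, Klf4 and c-Myc cassette, day 0 included, and each day was sampled without or with VC (50 µg/ml ascorbic acid and 3 µM CHIR-99201, as the labels spell it). All day 2 and day 4 libraries had doxycycline and no day 0 library did. Doxycycline, the factors it induces and days in culture therefore cannot be told apart. In the inhibitor table, D/KO tail tip fibroblasts (ERCC1 d/-, female, 4 weeks, no cassette named) received no inhibitor (control), Repsox or Vactosertib at 0.1 µM, or A83-01 or DMH-1 at 1 µM, for 3 days, beside untreated WT tail tip and WT skin fibroblasts (ERCC1 +/+, female, 14 weeks) and 4FJ +/- OCT4-GFP tail tip fibroblasts labelled only TGFB (female, 22 weeks). The study describes Repsox and A83-01 as inhibitors of the TGFb receptor ALK5, DMH-1 as an inhibitor of the BMP receptor ALK2, and Vactosertib as acting on both receptors. The control is described as not treated, and whether it received the vehicle is not given in the sources used here. The Ercc1 lines were bred on a hybrid C57BL6J and FVB background, and the cells were grown in low oxygen for few passages. Each of the 20 groups had 3 libraries, 60 in all. The labels give 1 age and 1 sex for each line, so genotype, sex, age and line cannot be told apart in the reprogramming table, nor genotype, age and line in the inhibitor table. Nothing in the labels says that the 3 libraries of a group came from separate mice, so p-values measure the spread between libraries, which may be technical.

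The reprogramming libraries held 16538374 to 18484951 counts and the inhibitor libraries 17102639 to 30599138. Ercc1 was read at 8.79 to 17.3 CPM (the count scaled to the library's total) in the 18 D/KO and 16.3 to 31.4 in the 18 WT libraries of the reprogramming table, with medians of 11.2 and 19.8. It was at 14.6 to 25.0 and 12.9 to 26.7 in the D/KO and ERCC1 +/+ libraries of the inhibitor table, with medians of 19.8 and 19.2. The ranges overlapped in both tables. Libraries deviated from the others of their group with an SD of 0.153 to 0.788 on the log2 scale, and WT skin replicate 1 (0.788) and Repsox replicate 2 (0.583) stood apart. The 8 fibroblast markers summed to at least 32000 CPM in every library. The 5 endothelial markers summed to 680 to 713 CPM in D/KO day 0 and to 0.608 to 1.02 in WT day 0, and their part in any difference between those lines was not tested.

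On the GRCm39 coordinates of the count tables, the genes lie apart from one another except for Dcn (chromosome 10, 97315471 to 97354005, plus strand) and Lum (chromosome 10, 97400990 to 97408565, plus strand), which are neighbours. Has1 is on chromosome 17 (18063585 to 18075467, minus strand), Has2 on chromosome 15 (56529023 to 56557935, minus strand) and Has3 on chromosome 8 (107596874 to 107611198, plus strand). Vcan is on chromosome 13 (89803431 to 89890628, minus strand) and Acan on chromosome 7 (78703231 to 78764847, plus strand). Bgn is on chromosome X (72527208 to 72539539, plus strand), Fmod on chromosome 1 (133964992 to 133976015, plus strand) and Prg4 also on chromosome 1 (150325163 to 150341916, minus strand). Counts were summed over the exons of each gene. On the same GRCm39 coordinates, exons of 4 genes on the opposite strand overlap 3 of the family: Tpr shares 204 exon bases with Prg4, Has2os 182 with Has2, and Chtf8 and Derpc 352 each with Has3. The strand setting of the counting is not given in the sources used here, so reads in those stretches cannot be assigned with certainty. Has2os was at 0.546 to 9.66 CPM per library against 6.98 to 233 for Has2, and Chtf8 and Derpc were at most at 0.752 CPM. Tpr reached 236 CPM per library and lay above Prg4 in the mean of every group.

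To show what lies just upstream of 3 members the results turn on, the 250 bases before the annotated start are given 5′ to 3′, from RefSeq on GRCm38.p6. Across the reprogramming groups, Fmod and Bgn had the highest correlation of mean log2 CPM of any pair in the family, though at levels far apart, and Has1 rose most. Capitals mark a match to 1 of 3 short motifs searched on both strands: TGANTCA (AP-1), CTTTGAT (TCF/LEF) and CAGACA (SMAD).
Has1 (chr17:17855189-17855438, minus strand): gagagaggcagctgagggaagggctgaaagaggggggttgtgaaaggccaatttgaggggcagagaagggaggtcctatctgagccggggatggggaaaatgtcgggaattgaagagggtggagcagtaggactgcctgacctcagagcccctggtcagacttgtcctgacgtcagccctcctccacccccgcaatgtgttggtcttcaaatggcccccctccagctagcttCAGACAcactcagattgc
Bgn (chrX:73483351-73483600, plus strand): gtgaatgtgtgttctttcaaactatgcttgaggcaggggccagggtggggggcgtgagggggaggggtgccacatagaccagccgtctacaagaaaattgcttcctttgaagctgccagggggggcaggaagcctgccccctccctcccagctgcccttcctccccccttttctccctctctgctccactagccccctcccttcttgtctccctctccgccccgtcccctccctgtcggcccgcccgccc
Fmod (chr1:134037004-134037253, plus strand): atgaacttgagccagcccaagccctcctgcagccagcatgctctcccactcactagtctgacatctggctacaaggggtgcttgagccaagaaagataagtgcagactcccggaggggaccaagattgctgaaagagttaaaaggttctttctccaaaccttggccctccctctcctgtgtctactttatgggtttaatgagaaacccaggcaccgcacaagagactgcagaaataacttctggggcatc
Of the 5 members with an entry (Has1, Vcan, Bgn, Fmod and Acan), Has1 held the single match, a CAGACA at 18 to 13 bases before the start. The CAGACA motif was in 17.1% of all 32851 promoter windows of that length, TGANTCA in 6.7% and CTTTGAT in 3.2%. The windows differed in base composition, with 64.4% G and C in Bgn and 51.2% in Fmod against a median of 52.4% over all windows. A match is a description of these letters and not of a bound site.

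Per kilobase of exon, Bgn was the most abundant member in D/KO day 0 and WT day 0, at 1051 and 1022 CPM per kb. Fmod, Dcn, Lum and Vcan followed at 114, 90.4, 62.3 and 61.6 CPM per kb in D/KO day 0, and Dcn, Fmod, Lum and Vcan at 198, 187, 129 and 52.0 in WT day 0. The order of those 4 cannot be read closely within a line, because Dcn alone ran from 326 to 667 CPM over the 3 D/KO day 0 libraries. Prg4 was at 16.9 and 11.1 CPM per kb and Has2 at 12.9 and 6.90. Has1 and Has3 were below 1 CPM per kb in both lines at day 0. Has2 made up 87.5% to 98.8% of the summed Has level per kb in every one of the 60 libraries, and Has1 0.2% to 12.3%.

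Acan, the chondroitin sulfate proteoglycan of cartilage, was close to unread. It had 0 counts in 43 of 60 libraries, a highest count of 13 and 63 counts in all, and 0 counts in each of the 18 WT libraries of the reprogramming table. A count of 0 allows up to 3 counts, or 0.162 to 0.181 CPM per library in that table, counting error only. Acan did not pass edgeR's expression filter and was not tested, so counts below are of the 9 other members. Of 7 cartilage markers, Col2a1, the collagen that defines the tissue, had at most 127 counts in a library, Col11a2 61, Matn3 20, Cnmd 15 and Col9a1 3, while Sox9 and Comp reached 2186 and 2361.

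Each later day was tested against day 0 with the same supplement by edgeR's quasi-likelihood test over all genes that passed the filter, with Benjamini-Hochberg adjustment and a call at an adjusted p under 0.05. CPM values of members are scaled by TMM (trimmed mean of M values) within each table. In D/KO cells 2 members rose and 3 fell at day 2, where 14.3% of 15832 genes were higher and 13.2% lower, and 3 rose and 5 fell at day 4 (18.3% and 18.7% of genes). Plus VC, 1 rose and 5 fell at day 2 (23.8% and 23.6%) and 1 rose and 7 fell at day 4 (27.9% and 26.2%). In WT cells 2 rose and 1 fell at day 2 (6.26% and 4.3%) and 4 rose and 2 fell at day 4 (11.7% and 12.8%). Plus VC, 3 rose and 3 fell in WT cells at day 2 (13.8% and 13.7%) and 4 rose and 5 fell at day 4 (22.7% and 22%). The 5 calls at D/KO day 2 became 3 without D/KO day 0 replicate 1 or D/KO day 2 replicate 1 or 3 and 2 without D/KO day 0 replicate 2, and the 3 calls at WT day 2 became 1 without WT day 2 replicate 3. The median log2 fold change of the 9 members at day 4 was -0.60 in D/KO, -0.67 in D/KO plus VC, 0.40 in WT and -0.45 in WT plus VC, while that of all tested genes was between -0.02 and 0.03. Groups with VC share day 0 plus VC, and those without share day 0, so the changes at days 2 and 4 of an arm are not independent. In bulk libraries, fewer cells of a type and less RNA per cell cannot be told apart.

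**Figure D1:**
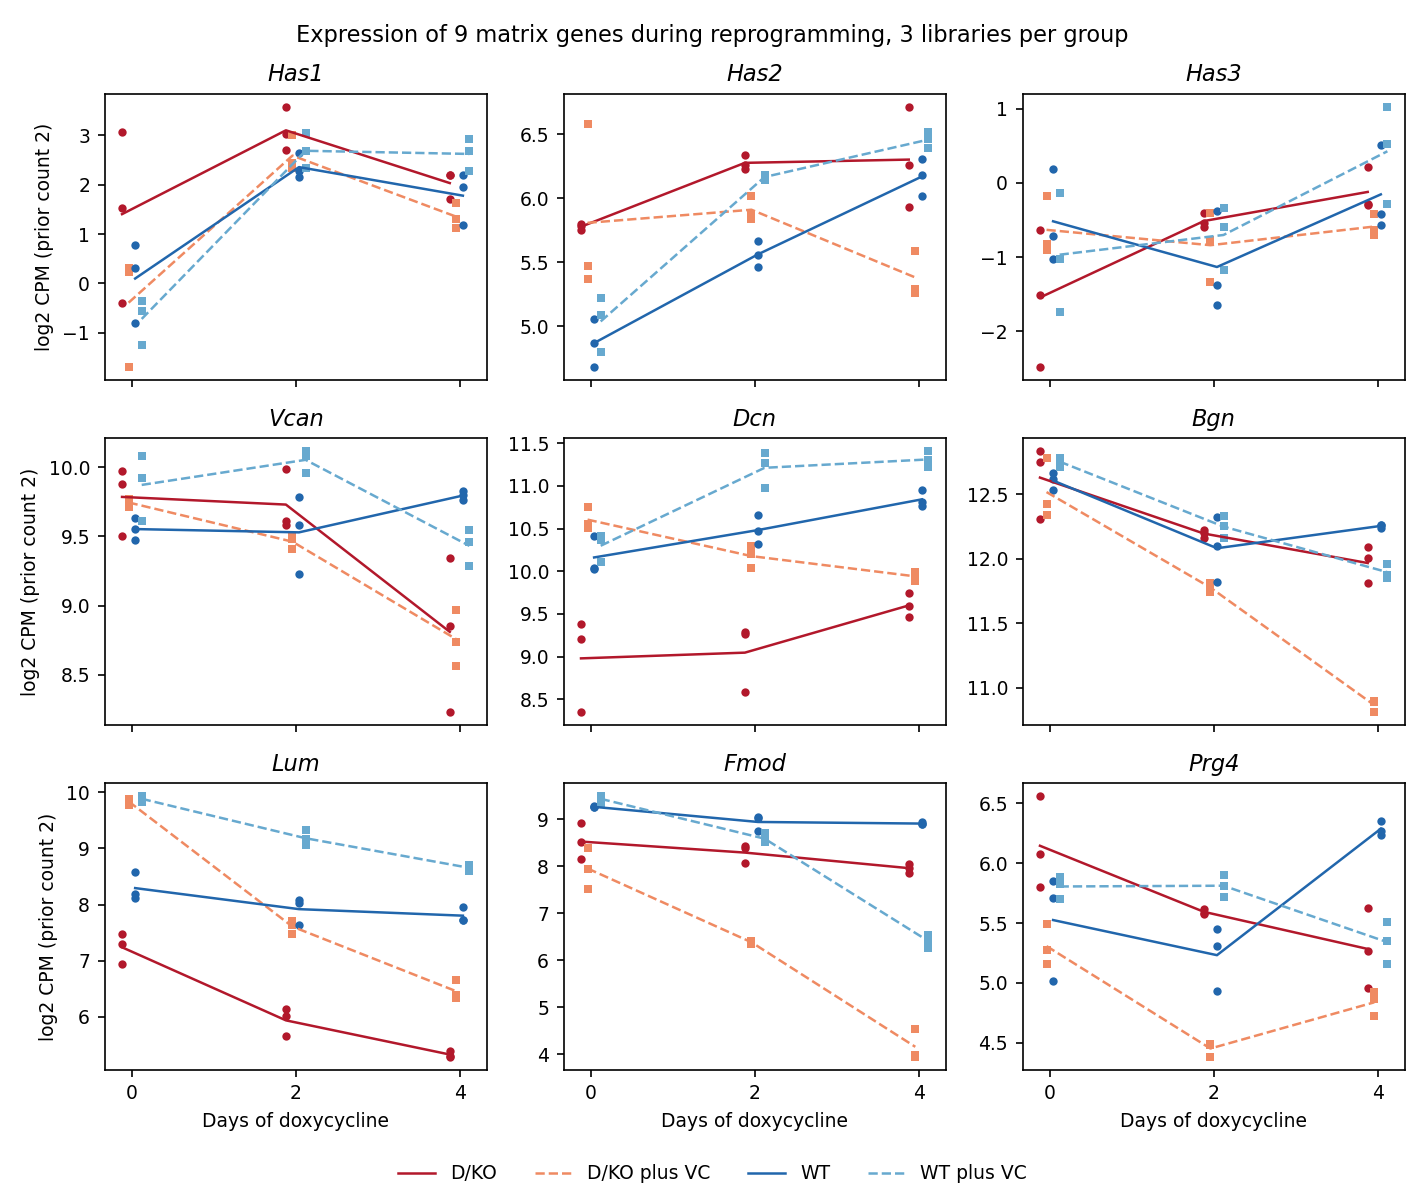
Level of 9 members during reprogramming. The x axis is days of doxycycline and the y axis log2 CPM with a prior count of 2, on a scale of its own in each panel; points are libraries, lines join the means of 3 libraries, and colours are D/KO and WT without and plus VC. In Fmod both VC lines drop at day 4, and in Lum both start higher plus VC at day 0 and fall from there.

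Among the hyaluronan synthases, Has2 rose in WT cells and Has1 rose in 7 of the 8 comparisons with day 0. In WT, Has2 was at 33.2, 25.5 and 29.1 CPM on day 0, at 44.0, 46.8 and 50.8 on day 2 and at 79.2, 72.4 and 64.8 on day 4. No library of a later day overlapped the earlier one. The log2 fold change was 0.69 ± 0.19 (SE) at day 2 (adjusted p = 0.0132) and 1.31 ± 0.19 at day 4 (adjusted p = 1.85e-06). Plus VC it went from 27.8, 33.8 and 37.2 CPM to 84.0, 88.4 and 91.4 on day 4, a rise of 1.42 ± 0.19 (adjusted p = 1.46e-07). The WT day 2 call was lost without WT day 0 replicate 2 (0.61) or WT day 2 replicate 3 (0.65).

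In D/KO cells Has2 also rose without VC, and its change was not called different from that in WT at day 2 (D/KO minus WT -0.19, adjusted p = 0.765) or day 4 (-0.75, adjusted p = 0.0535). It was at 54.9, 53.7 and 55.5 CPM on day 0, 76.6, 75.0 and 80.8 on day 2 and 76.3, 61 and 105 on day 4. Day 0 did not overlap with either day. The rise was 0.50 ± 0.19 at day 2 (adjusted p = 0.0424) and 0.56 ± 0.19 at day 4 (adjusted p = 0.0158), but the day 2 call was lost whichever of the 6 libraries was left out (0.47 to 0.52), and the day 4 call without D/KO day 4 replicate 3 (0.33). Plus VC, Has2 was at 44.2, 41.3 and 95.8 CPM on day 0 and at 39, 38.2 and 48.1 on day 4, so that day 0 plus VC replicate 3 stood far above the rest. The fall of 0.54 on the log2 scale at day 4 plus VC (adjusted p = 0.0161) became -0.03 without that library, and the change at day 2 plus VC turned from -0.01 to 0.49, a call.

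Has1, a low-abundance synthase, rose in both lines. In WT it was at 1.60, 1.13 and 0.460 CPM on day 0 and at 6.09, 4.37 and 4.71 on day 2, and plus VC at 0.568, 0.306 and 0.664 on day 0 and 8.16, 6.27 and 4.94 on day 2. Neither pair of groups overlapped. The rise was 2.26 ± 0.50 without VC (adjusted p = 0.00187) and 3.64 ± 0.57 plus VC (adjusted p = 4.49e-06), and at day 4 it was 1.72 ± 0.51 (adjusted p = 0.012) and 3.58 ± 0.57 (adjusted p = 3.21e-06). The WT day 4 call without VC was lost without WT day 0 replicate 3 (1.35) or WT day 4 replicate 1 (1.49).

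In D/KO cells Has1 was uneven on day 0, at 2.77, 0.647 and 8.31 CPM, against 8.01, 6.38 and 11.9 on day 2 and 3.15, 4.44 and 4.48 on day 4. The groups overlapped at both days. The rise of 1.16 ± 0.43 at day 2 (adjusted p = 0.0427) was lost without any of 4 libraries, with values from 0.65 to 2.37 over the 6 left out, and with DESeq2. The day 4 value of 0.04 ± 0.45 (adjusted p = 0.959) became 1.25, a call, without D/KO day 0 replicate 3. Plus VC, day 0 was at 0.194, 1.05 and 1.12 CPM, day 2 at 4.93, 5.28 and 7.90 and day 4 at 2.06, 2.34 and 3.00. Here no libraries overlapped, and the rise was 2.95 ± 0.55 at day 2 (adjusted p = 2.67e-05) and 1.66 ± 0.58 at day 4 (adjusted p = 0.0146), the latter lost without day 0 plus VC replicate 1 (1.17). Set against day 0 without VC, D/KO plus VC was at 0.62 on day 2 and -0.66 on day 4, neither of them called. Has3, with at most 36 counts in a library, was called at D/KO day 4 (1.52 ± 0.61, adjusted p = 0.0466) and WT day 4 plus VC (1.55 ± 0.56, adjusted p = 0.024), and both calls were lost when no filter was used. The D/KO call was lost in 5 of the 6 fits with 1 library left out (1.08 to 2.37), all but D/KO day 0 replicate 2, and the WT call without day 0 plus VC replicate 1 (1.44) or 2 (1.17) or day 4 plus VC replicate 3 (1.18).

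Vcan, the hyaluronan-binding proteoglycan of loose and healing tissue, fell in D/KO cells by day 4. It was at 727, 1006 and 941 CPM on day 0 and at 463, 300.2 and 650.5 on day 4, and plus VC at 859, 841 and 876 and then at 501, 378 and 427. Neither day 4 group overlapped its day 0. The fall was 0.92 ± 0.17 on the log2 scale (adjusted p = 3.14e-05) and plus VC 0.98 ± 0.17 (adjusted p = 6.84e-06), to 52.8% and 50.6% of day 0, and no left-out library ended either call. At day 2 the values were -0.06 ± 0.17 (adjusted p = 0.843) and -0.29 ± 0.17 (adjusted p = 0.158). In WT cells Vcan was at 750.1, 712 and 794 CPM on day 0 and 908, 889 and 869 on day 4, with a value of 0.25 ± 0.17 (adjusted p = 0.304). WT day 4 plus VC fell by 0.45 (adjusted p = 0.0295), a call lost in 4 of the 6 fits with 1 library left out (-0.57 to -0.34). Against day 0 without VC, Vcan was at -0.111 at WT day 4 plus VC (adjusted p = 0.637). On that baseline WT day 2 plus VC was at 0.5 (adjusted p = 0.0174), a call not made against day 0 plus VC.

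**Figure D2:**
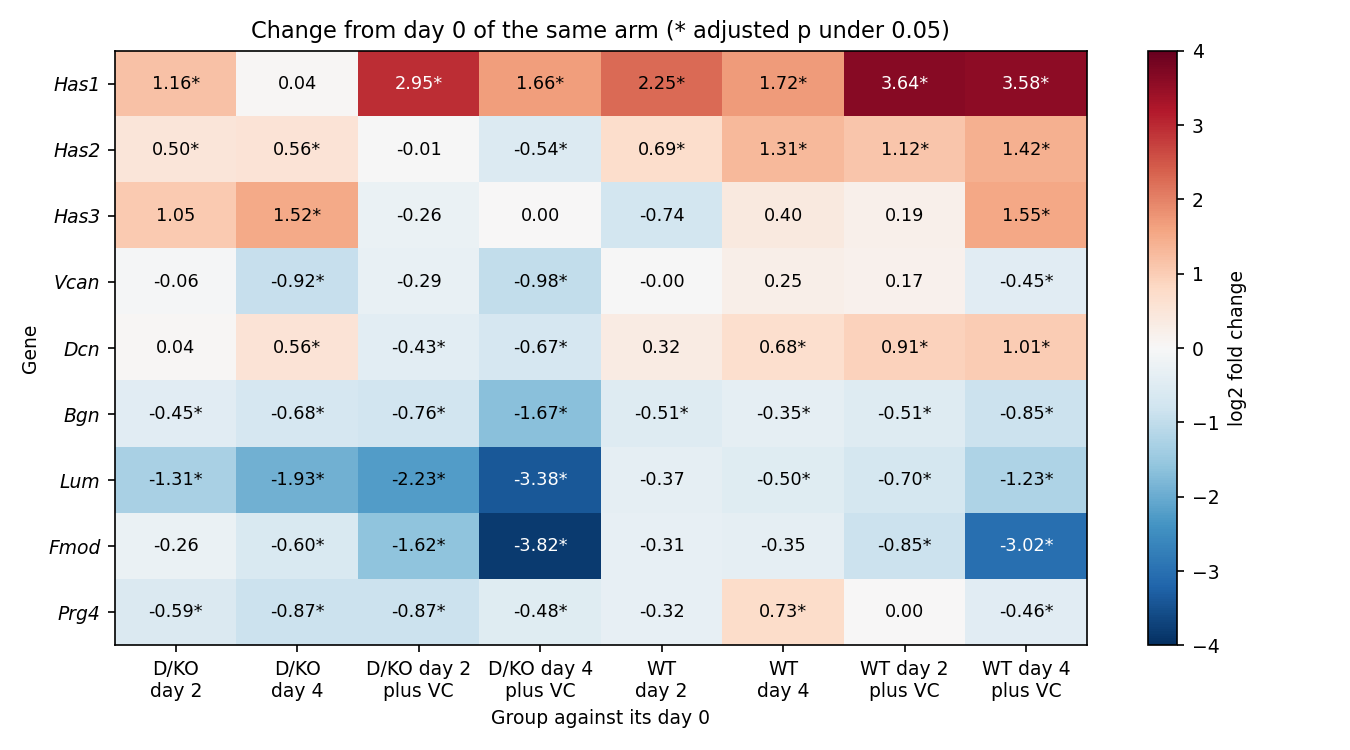
Log2 fold change of 9 members against day 0 of the same arm (rows are genes, columns groups, colour and number the log2 fold change). An asterisk marks an adjusted p under 0.05; the lowest values are those of Fmod and Lum at D/KO day 4 plus VC, -3.82 and -3.38.

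The small leucine-rich proteoglycans did not move as 1 block: Bgn fell in all 8 comparisons, Lum in 7, Fmod in 5, and Dcn rose in 4 and fell in 2. Fmod, which binds collagen fibrils, fell most with VC. In D/KO it was at 246, 338 and 184 CPM on day 0 plus VC, at 83.5, 82.0 and 85.1 on day 2 and at 15.3, 15.7 and 23.3 on day 4. The 3 groups did not overlap. Fmod fell by 1.62 ± 0.16 at day 2 (adjusted p = 1.88e-10) and by 3.82 ± 0.18 at day 4 (adjusted p = 2e-19), to 7.08% of day 0 plus VC. In WT it was at 722, 713 and 649 CPM, then 417, 367 and 374, then 93.2, 76.9 and 85.5, a fall of 3.02 ± 0.17 by day 4 plus VC (adjusted p = 7.35e-17), to 12.3%.

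Without VC the change of Fmod was smaller. It went from 365, 483 and 286 CPM on D/KO day 0 to 266, 249.8 and 233 on day 4, and from 622, 611 and 616 to 493, 476 and 476 in WT. Groups did not overlap in either line. The D/KO fall was 0.60 ± 0.16 (adjusted p = 0.00246), lost without D/KO day 0 replicate 2 (-0.38), and the WT value was -0.35 ± 0.16 (adjusted p = 0.0992). The VC difference of the day 4 change, tested as an interaction, was -3.22 ± 0.23 in D/KO (adjusted p = 4.58e-13) and -2.67 ± 0.23 in WT (adjusted p = 7.19e-11). It was the largest such difference among the 9 members in each line.

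Lum, a fibril-binding keratan sulfate proteoglycan, was raised by VC alone and then fell over the days of doxycycline. Day 0 was at 157, 178 and 123 CPM in D/KO and 925, 946 and 871 plus VC, and at 381, 292 and 277 in WT and 976, 949 and 908 plus VC. The groups did not overlap, and VC alone raised Lum by 2.59 ± 0.14 in D/KO (adjusted p = 5.3e-17) and by 1.58 ± 0.13 in WT (adjusted p = 1.04e-11). From there Lum fell in D/KO to 208, 198 and 179 CPM on day 2 plus VC and 100.2, 83.3 and 80.5 on day 4 plus VC, a fall of 3.38 ± 0.14 (adjusted p = 7.73e-21). In WT it fell to 400.0, 389 and 418 on day 4 plus VC, by 1.23 ± 0.13 (adjusted p = 1.1e-09). Without VC it fell by 1.93 ± 0.14 in D/KO at day 4 (38.9, 41.8 and 39.4 CPM, adjusted p = 3.77e-14) and by 0.50 ± 0.13 in WT (212, 247 and 212 CPM, adjusted p = 0.00427), the latter lost without WT day 0 replicate 1 (-0.34). Set against day 0 without VC, D/KO day 2 and day 4 plus VC were 0.35 and -0.79 and WT day 2 and day 4 plus VC 0.88 and 0.35, so the size depends on the baseline and, except at D/KO day 4, the direction too.

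Dcn, a fibril-binding and TGFb-binding proteoglycan, rose in WT and with VC alone in D/KO. WT was at 1361, 1046 and 1055 CPM on day 0 and 1742, 1979 and 1794 on day 4, and plus VC at 1361, 1324 and 1108 and then 2389.6, 2527 and 2712. Neither pair overlapped, and Dcn rose by 0.68 ± 0.17 (adjusted p = 0.0033) and by 1.01 ± 0.17 plus VC (adjusted p = 9.93e-06). D/KO was at 589, 667 and 326 CPM on day 0, 855, 769.5 and 709 on day 4 and 1727, 1453 and 1504 on day 0 plus VC. VC alone raised it by 1.57 ± 0.17 (adjusted p = 8.01e-09), and day 4 raised it by 0.56 ± 0.17 (adjusted p = 0.0093), the latter lost without D/KO day 0 replicate 3 (0.31). From day 0 plus VC it fell to 991, 1014 and 942 CPM at day 4, by 0.67 ± 0.17 (adjusted p = 0.00122), but against day 0 without VC the same group was 0.90 higher. VC alone gave 0.14 ± 0.17 in WT (adjusted p = 0.595).

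Bgn, on the X chromosome, was the most abundant member and fell in every comparison with day 0. In D/KO it was at 5056, 7291 and 6885 CPM on day 0 and 4352, 4100.1 and 3587 on day 4, and plus VC at 5494, 7046 and 5192 and then 1796, 1908 and 1891. The groups did not overlap. It fell by 0.68 ± 0.12 (adjusted p = 1.96e-05) and by 1.67 ± 0.12 plus VC (adjusted p = 4.89e-14), to 62.6% and 31.5%. In WT, day 0 at 6482, 5938 and 6286 CPM went to 4904, 4910.2 and 4836, a fall of 0.35 ± 0.12 (adjusted p = 0.031), whose call was lost whichever of the 6 libraries was left out (-0.37 to -0.31), and plus VC it fell by 0.85 ± 0.12 (adjusted p = 3.88e-07). WT day 2 fell by 0.51 ± 0.12 (adjusted p = 0.00351), lost without WT day 2 replicate 3 (-0.38).

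Prg4 fell in D/KO cells and rose in WT cells at day 4. In D/KO it was at 55.5, 94.2 and 67.4 CPM on day 0 and 38.3, 30.9 and 49.4 on day 4, and in WT at 32.3, 52.2 and 57.5 on day 0 and 81.7, 77.1 and 75.2 on day 4. Neither pair overlapped. It fell by 0.87 ± 0.17 in D/KO (adjusted p = 5.67e-05) and rose by 0.73 ± 0.17 in WT (adjusted p = 0.00113), and no left-out library ended either call. The D/KO fall at day 2 (0.59 ± 0.17, adjusted p = 0.00655) was lost without D/KO day 0 replicate 2 (-0.36), the highest of the 3. VC alone lowered Prg4 in D/KO to 35.6, 38.6 and 44.8 CPM, by 0.86 ± 0.17 (adjusted p = 0.000135), and gave 0.24 ± 0.17 in WT (adjusted p = 0.291). At day 4 plus VC the falls of 0.48 ± 0.17 in D/KO (adjusted p = 0.018) and 0.46 ± 0.17 in WT (adjusted p = 0.0253) were lost when single libraries were left out. Those were D/KO day 0 plus VC replicate 3 (-0.38) and day 4 plus VC replicate 2 (-0.41), and 4 of the 6 WT libraries (-0.54 to -0.37). Against day 0 without VC, day 4 plus VC was at -1.34 in D/KO (adjusted p = 2.53e-08) and at -0.214 in WT (adjusted p = 0.329).

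VC alone, without doxycycline, called 2 members higher and 3 lower in D/KO, where 12.1% and 14% of genes were called, and 1 higher and 0 lower in WT (15.1% and 14.4%), where no other member had an unadjusted p under 0.05. The D/KO falls not yet given were Fmod at 0.56 ± 0.16 (adjusted p = 0.0073), lost without D/KO day 0 replicate 2 (-0.35) or day 0 plus VC replicate 3 (-0.37), and Has1 at 2.33 ± 0.56 (adjusted p = 0.00167), lost without D/KO day 0 replicate 3 (-1.11). The VC difference of the day 4 change was called in 5 members in D/KO (26.9% of genes) and 5 in WT (15.3%), and that of the day 2 change in 2 in D/KO (14.5%). In WT the day 2 difference was called in 0 members by edgeR (5.52% of genes), with 2 at an unadjusted p under 0.05. In D/KO the day 4 difference was also -1.45 ± 0.19 for Lum (adjusted p = 2.05e-07), -1.23 ± 0.24 for Dcn (adjusted p = 0.000181), -1.10 ± 0.27 for Has2 (adjusted p = 0.00174) and -0.99 ± 0.17 for Bgn (adjusted p = 2.58e-05). In WT it was -1.18 ± 0.24 for Prg4 (adjusted p = 0.000453). The Has2 value became -0.60 without D/KO day 0 plus VC replicate 3. At D/KO day 4 itself mean Lum and Dcn were higher with VC than without, at 88.0 against 40.1 and 982.3 against 777.5 CPM. Both were also higher with VC at day 0. Bgn and Has2 were lower with VC at D/KO day 4, at 1865 against 4013 and 41.8 against 80.8 CPM. The 5 calls in WT became 3 without any of 10 of the 12 libraries, all but replicate 1 of day 0 plus VC and of day 4 plus VC.

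From day 2 to day 4, 3 members were called in D/KO (9.57% of genes), 5 in D/KO plus VC (15.6%), 2 in WT (21.5%) and 5 in WT plus VC (20.1%). Fmod fell by 2.20 ± 0.17 in D/KO plus VC (adjusted p = 5.83e-12) and by 2.17 ± 0.17 in WT plus VC (adjusted p = 9.06e-12) over those days. Prg4 in WT rose by 1.04 ± 0.17 (adjusted p = 5.17e-05). Vcan fell by 0.86 ± 0.17 in D/KO (adjusted p = 0.000489), a call lost when the 2 groups alone were fitted (-0.84). The 2 calls in WT became 1 without WT day 2 replicate 2 or WT day 4 replicate 1, and the 5 in WT plus VC became 3 without day 2 plus VC replicate 1 or 3 or any day 4 plus VC library.

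Other marker levels moved with these groups, both with and without VC. Plus VC, the 8 fibroblast markers summed to 180000 to 251000 CPM in D/KO day 0 plus VC and to 32000 to 33200 at D/KO day 4 plus VC, where 2 of 8 rose and 5 fell (27.9% of genes higher and 26.2% lower), with a median log2 fold change of -1.74 over the 8. In WT plus VC they were at 153000 to 169000 CPM on day 0 and 57600 to 68800 on day 4. The 6 keratinocyte markers summed to 1.19 to 2.13 CPM on day 0 and 336 to 467 on day 4 in D/KO plus VC, and to 0.694 to 1.53 and 10.2 to 12 in WT plus VC. Krt14 and Cdh1 had up to 8002 and 916 counts in a library of this table, whereas Trp63, Epcam, Krt5 and Krt15 had at most 86, 16, 12 and 2, so the highest D/KO sums are mostly Krt14. Without VC, from day 0 to day 4 in D/KO, fibroblast markers were at 79600 to 118000 and then 36700 to 38200 CPM, endothelial markers at 680 to 713 and then 249 to 298, and keratinocyte markers at 0.177 to 0.764 and then 43 to 59.4. The 4 tenocyte markers summed in WT to 915 to 1470 CPM on day 0 and 383 to 411 on day 4, and plus VC to 646 to 697 and 121 to 139. In D/KO they summed to 70.6 to 89.3 CPM on day 0 and 26.3 to 27.3 on day 4, and plus VC to 50.7 to 59.2 and 6.63 to 9.19, where muscle markers were at 42.2 to 58.3 and then 3.7 to 5.4. Thbs4 had up to 23665 counts in a library of this table, Tnmd 2719, Scx 211 and Mkx 166. VC alone went with fibroblast marker sums of 153000 to 169000 against 50500 to 52500 CPM in WT, and of 180000 to 251000 against 79600 to 118000 in D/KO. Col1a1, Col1a2, Col3a1 and Vim had up to 2184990, 746979, 380647 and 243875 counts in a library of this table. Thy1, Pdgfra, Pdgfrb and Fap had at most 20050, 17415, 12841 and 531, so the highest fibroblast sums are mostly collagen. Cartilage markers were at 22.3 to 36.7 CPM with VC alone against 100 to 156 in D/KO and at 29.9 to 37.6 against 84.6 to 90.8 in WT, and endothelial markers at 226 to 268 against 680 to 713 in D/KO. In WT without VC, where Prg4 rose, cartilage markers were at 84.6 to 90.8 CPM on day 0 and 126 to 136 on day 4. From day 0 to day 4 macrophage markers were at 12.8 to 13.4 and then 6.48 to 6.85 CPM in D/KO, and plus VC at 10.2 to 12.8 and then 2.45 to 2.9. In WT they were at 75.6 to 146 and then 53.5 to 67.5, and plus VC at 69.5 to 118 and then 41.3 to 44.1. Muscle markers in WT plus VC were at 40.2 to 49.1 and then 9.84 to 13.2. The part of these markers in the changes of the members was not tested.

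Whether the changes differed between the D/KO and WT lines was tested as an interaction, the D/KO change minus the WT change. Each call was lower in D/KO: 1 member on day 2 (3.11% of genes lower), 3 on day 4 (7.04%) and, with VC, 5 on each day (7% and 15.5%). Lum was called in all 4 comparisons, by -0.93 ± 0.18 and -1.43 ± 0.19 without VC on days 2 and 4 and by -1.53 ± 0.18 and -2.15 ± 0.18 with it (adjusted p from 0.00102 to 4.34e-11). At day 4, Prg4 differed by -1.60 ± 0.23 (adjusted p = 6.03e-06) and Vcan by -1.17 ± 0.24 (adjusted p = 0.000565). At day 4 plus VC, Dcn differed by -1.68 ± 0.24 (adjusted p = 1.89e-06) and Bgn by -0.81 ± 0.17 (adjusted p = 0.00036). Has2 differed by -1.96 ± 0.27 there (adjusted p = 7.29e-07), which became -1.46 without D/KO day 0 plus VC replicate 3, still a call. With day 0 without VC as the baseline, Dcn with VC differed by 0.09 on day 2 and -0.25 on day 4, neither of them called. On that baseline Lum differed by -0.525 and -1.15 and Fmod by -1.50 and -1.53 on days 2 and 4, all called. Prg4 at day 4 plus VC, not called against day 0 plus VC, differed there by -1.13 (adjusted p = 0.000516). Calls were also gained on that baseline by Has1 (-1.98 and -3.21) and Vcan (-0.838 and -0.92) on days 2 and 4, and by Bgn on day 2 (-0.515). These are differences between 2 lines that also differ in sex and age.

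**Figure D3:**
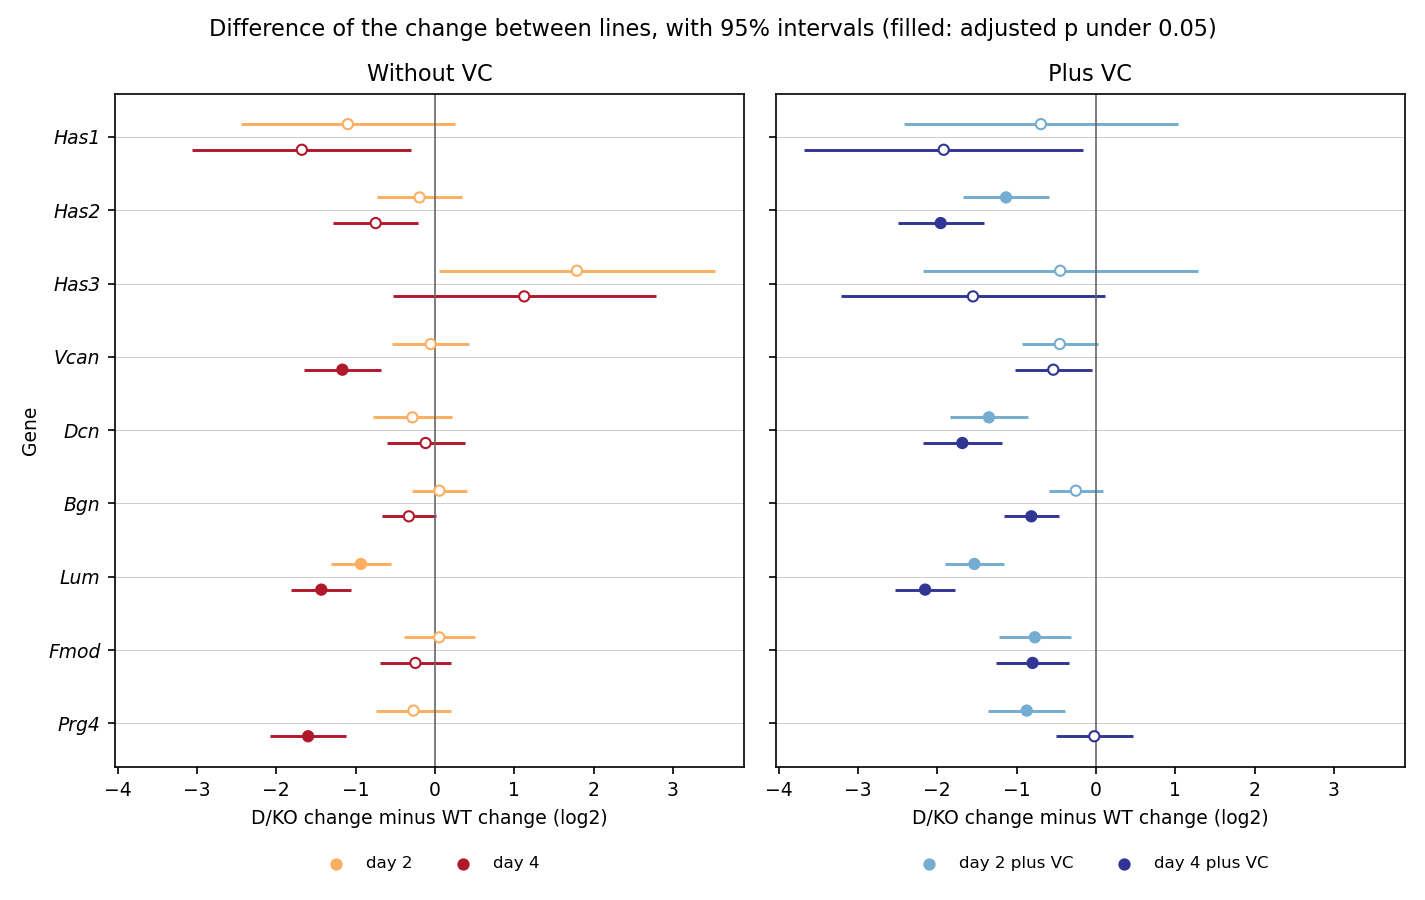
D/KO change from day 0 minus WT change from day 0 of 9 members (x axis, log2, with 95% intervals; y axis, genes), without VC on the left and plus VC on the right. Filled points passed an adjusted p of 0.05, and each of them lies to the left of 0.

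On day 0 itself 6 members differed between the lines (43.2% of genes called). Macrophage markers summed to 12.8 to 13.4 CPM in D/KO and 75.6 to 146 in WT and tenocyte markers to 70.6 to 89.3 and 915 to 1470, and their part was not tested. Dcn was lower in D/KO by 1.13 ± 0.17 (adjusted p = 2.21e-06), Lum by 1.05 ± 0.13 (adjusted p = 4.46e-08) and Fmod by 0.71 ± 0.16 (adjusted p = 0.000419). Has2 was higher by 0.91 ± 0.19 (adjusted p = 0.000219), in 3 of 3 libraries above all 3 WT libraries. Has1 (1.89 ± 0.51, adjusted p = 0.00301) and Prg4 (0.61 ± 0.17, adjusted p = 0.00297) were higher in D/KO, but lost their calls without D/KO day 0 replicate 3 (0.67) and replicate 2 (0.38). In the inhibitor table, control D/KO against control WT tail tip called 4 members (40.2% of genes), and Has2 stood the other way round. It was at 42.3, 42.7 and 44.0 CPM in control D/KO and 93.1, 108 and 97.2 in WT tail tip, lower in D/KO by 1.19 ± 0.12 (adjusted p = 5.07e-07). Has1 was also lower in D/KO there, at 1.14, 0.676 and 0.763 against 11.4, 9.21 and 10.5 CPM, by 3.55 ± 0.36 (adjusted p = 4.83e-07). Dcn was lower by 1.91 ± 0.10 (adjusted p = 1.13e-10) and Fmod by 1.08 ± 0.12 (adjusted p = 1.02e-06). Endothelial markers summed to 291 to 331 CPM in control D/KO and 30.7 to 43.6 in WT tail tip and cartilage markers to 62.5 to 73.3 and 139 to 145, and their part was not tested. The D/KO lines of the 2 tables are different mice, of different sex and age, and the tables were normalized apart.

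In the inhibitor table each inhibitor was compared with the same 3 control D/KO libraries, so the 4 comparisons are not independent. Repsox raised 2 members and lowered 5, where 13.4% and 11.8% of 15164 genes were called. Vactosertib raised 2 and lowered 4 (11.8% and 10.3% of genes), A83-01 raised 2 and lowered 5 (16.4% and 16.2%) and DMH-1 raised 2 and lowered 2 (5.96% and 3.79%). Has2 and Prg4 fell with all 4, and Vcan and Has1 with Repsox, Vactosertib and A83-01, while Dcn rose with all 4 and Fmod with Repsox, Vactosertib and A83-01.

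**Figure D4:**
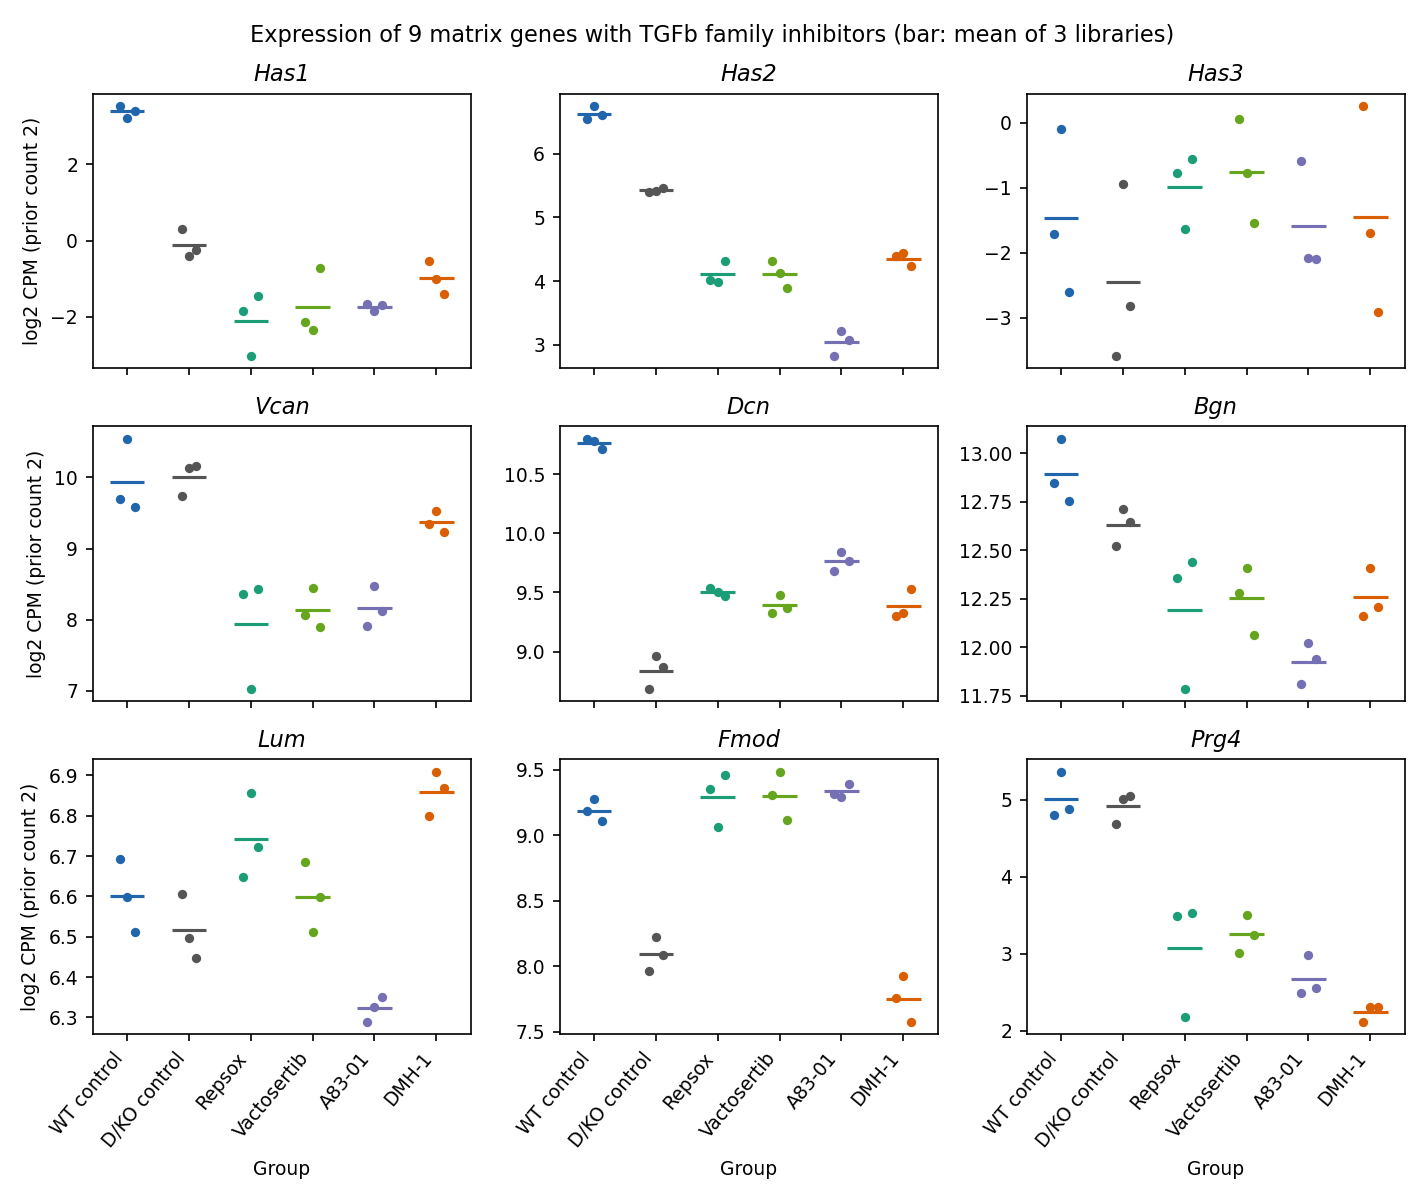
Level of 9 members in D/KO fibroblasts with inhibitors and in control D/KO and WT tail tip fibroblasts. The x axis is the group, the y axis log2 CPM with a prior count of 2 on a scale of its own in each panel, points are libraries and bars the mean of 3. In Has2 and Prg4 every inhibitor library lies below the D/KO controls.

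Has2 fell with all 4 inhibitors. It was at 42.3, 42.7 and 44.0 CPM in control D/KO, 16.2, 15.7 and 19.9 with Repsox, 19.7, 17.4 and 14.8 with Vactosertib, 6.98, 9.21 and 8.34 with A83-01 and 21.0, 21.5 and 18.7 with DMH-1. No inhibitor library reached a control library. The fall was 1.35 ± 0.12 with Repsox (adjusted p = 3.87e-07), 1.32 ± 0.12 with Vactosertib (adjusted p = 6.62e-07), 2.42 ± 0.13 with A83-01 (adjusted p = 4.07e-10) and 1.09 ± 0.12 with DMH-1 (adjusted p = 1.7e-05). Has1 fell by 2.31 ± 0.49 with Repsox (adjusted p = 0.00207) and by 2.01 ± 0.47 with A83-01 (adjusted p = 0.00342), from 1.14, 0.676 and 0.763 CPM. With Vactosertib it fell by 1.81 ± 0.48 (adjusted p = 0.0118), a call lost without control replicate 1 (-1.54) or Vactosertib replicate 1 (-1.55) or 2 (-1.40), and -2.74 without Vactosertib replicate 3. These falls rest on few counts: 27, 14 and 13 in control D/KO, 5, 1 and 8 with Repsox, 3, 3 and 10 with Vactosertib and 6, 5 and 6 with A83-01. The library with 1 count was Repsox replicate 2, which stood apart. The DMH-1 value was -0.95 ± 0.42 (adjusted p = 0.183), with its 3 libraries, at 0.602, 0.417 and 0.296 CPM, below the controls.

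Vcan was at 854, 1125 and 1148 CPM in control D/KO, 328, 130.2 and 345 with Repsox, 267, 349 and 239 with Vactosertib, 239.5, 355 and 278 with A83-01 and 651, 739 and 603 with DMH-1. Groups did not overlap with the controls. It fell by 2.00 ± 0.31 with Repsox (adjusted p = 0.000129), 1.89 ± 0.31 with Vactosertib (adjusted p = 0.000262) and 1.87 ± 0.31 with A83-01 (adjusted p = 0.000157), and its DMH-1 value was -0.66 ± 0.30 (adjusted p = 0.198). Without Repsox replicate 2, the library that stood apart, the Repsox value was -1.67 and still called.

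Prg4 fell with all 4 inhibitors. It was at 25.6, 32.2 and 33.0 CPM in control D/KO, 11.2, 4.46 and 11.5 with Repsox, 7.99, 11.3 and 9.41 with Vactosertib, 5.52, 7.87 and 5.78 with A83-01 and 4.25, 4.87 and 4.89 with DMH-1. No inhibitor library overlapped a control. The fall was 1.77 ± 0.27 with Repsox (adjusted p = 9.45e-05), 1.67 ± 0.27 with Vactosertib (adjusted p = 0.000208), 2.27 ± 0.27 with A83-01 (adjusted p = 5.79e-06) and 2.71 ± 0.28 with DMH-1 (adjusted p = 7.07e-06). The Repsox value was -1.45 without Repsox replicate 2. Tpr, which shares exon bases with Prg4, had a mean of 116 CPM in control D/KO, 60.3 with Vactosertib, 99.6 with A83-01 and 78.6 with DMH-1 and was at most at 78.1 in a library with Repsox, and its part was not tested.

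Fmod and Dcn rose. Fmod was at 250.2, 299 and 272 CPM in control D/KO, 656, 536 and 703 with Repsox, 632, 715 and 555 with Vactosertib and 637, 628 and 673 with A83-01, and at 217, 243 and 191 with DMH-1. The Repsox, Vactosertib and A83-01 libraries lay above all controls and the DMH-1 libraries below. It rose by 1.17 ± 0.12 (adjusted p = 9.55e-07), 1.2 ± 0.12 (adjusted p = 1.01e-06) and 1.21 ± 0.12 (adjusted p = 4.23e-07), and its DMH-1 value was -0.35 ± 0.11 (adjusted p = 0.0648), a call with DESeq2. Dcn rose by 0.63 ± 0.09 with Repsox (adjusted p = 8.02e-05), 0.54 ± 0.09 with Vactosertib (adjusted p = 0.000469), 0.90 ± 0.09 with A83-01 (adjusted p = 1.23e-06) and 0.54 ± 0.09 with DMH-1 (adjusted p = 0.00124). Control D/KO Dcn was at 411, 500.0 and 467 CPM, and A83-01 at 823, 920.3 and 873.

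Bgn fell with Repsox and A83-01, and Lum rose with DMH-1. Bgn fell with Repsox by 0.44 ± 0.15 (adjusted p = 0.0352) and with A83-01 by 0.73 ± 0.15 (adjusted p = 0.000943), and the Repsox call was lost without Repsox replicate 2 (-0.27) or control replicate 2 (-0.40) or 3 (-0.43). Its values were -0.39 ± 0.15 with Vactosertib (adjusted p = 0.0709) and -0.38 ± 0.15 with DMH-1 (adjusted p = 0.124). Lum rose with DMH-1 by 0.33 ± 0.08 (adjusted p = 0.0196), from 97.2, 90.2 and 87.2 CPM to 111, 120.0 and 117, lost in 4 of the 6 fits with 1 library left out (0.30 to 0.38). Has3 was called with none of them, at 0 to 35 counts in a library. Fibroblast markers summed to 78200 to 83500 CPM in control D/KO, 39700 to 48200 with Repsox, 48700 to 52800 with Vactosertib, 42100 to 44300 with A83-01 and 66700 to 86000 with DMH-1, and 5, 5, 6 and 1 of the 8 fell, where 11.8%, 10.3%, 16.2% and 3.79% of genes were lower. Col1a1, Col1a2, Col3a1 and Vim had up to 1813026, 880874, 841056 and 218669 counts in a library of that table. Thy1, Pdgfra, Pdgfrb and Fap had at most 20457, 37648, 17633 and 404, so high sums are mostly collagen. Endothelial markers summed to 291 to 331 in control D/KO, 101 to 139 with A83-01 and 378 to 439 with DMH-1. The 4 Schwann cell markers summed to 7.34 to 10 CPM in control D/KO, 20.1 to 22.9 with Repsox, 14.9 to 21.4 with Vactosertib, 33.6 to 42.6 with A83-01 and 12.4 to 15.2 with DMH-1. Muscle markers summed to 28.2 to 34.7 in control D/KO, 15.4 to 23.9 with Repsox, 15.8 to 17.6 with Vactosertib, 11.6 to 14.7 with A83-01 and 13.8 to 19.9 with DMH-1. Tenocyte markers were at 140 to 147 in control D/KO and 184 to 218 with Repsox, and the 7 cartilage markers at 62.5 to 73.3 in control D/KO and 27.2 to 33.7 with DMH-1. Macrophage markers were at 10 to 14.2 in control D/KO, 15.9 to 29 with Repsox and 13.9 to 28.1 with Vactosertib. With A83-01 they were at 15.8 to 23 and with DMH-1 at 9.07 to 12.5. The part of these markers was not tested.

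Inhibitors of the same dose were compared in 2 pairs, with p-values adjusted over genes and then over the 2 pairs. Repsox and Vactosertib, both at 0.1 µM, differed in 0 of 9 members and 0 of 15164 genes by edgeR, with 0 members and 452 genes at an unadjusted p under 0.05, and 8 genes called by DESeq2. The 95% interval of the log2 difference was -0.28 to 0.24 for Has2, -0.26 to 0.22 for Fmod and -0.10 to 0.29 for Dcn, but -0.74 to 0.52 for Vcan, -0.66 to 0.47 for Prg4 and -1.76 to 0.77 for Has1. A83-01 and DMH-1, both at 1 µM, differed in 5 members (25.4% of genes called). Fmod was higher with A83-01 by 1.56, with an interval of 1.31 to 1.81 (adjusted p over 2 pairs = 7.74e-08), and Dcn by 0.36, with 0.17 to 0.56 (adjusted p over 2 pairs = 0.0161). Has2 was lower with A83-01 by 1.33 (1.60 to 1.07 lower, adjusted p over 2 pairs = 1.15e-06), Vcan by 1.21 (1.85 to 0.57 lower, adjusted p over 2 pairs = 0.0141) and Lum by 0.55 (0.73 to 0.37 lower, adjusted p over 2 pairs = 0.000226). For Prg4 the interval was -0.15 to 1.03, and for Has1, at -1.05, it was -2.11 to 0.01 (adjusted p over 2 pairs = 0.286). Repsox and Vactosertib were not compared with A83-01 and DMH-1, because the doses differed.

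**Figure D5:**
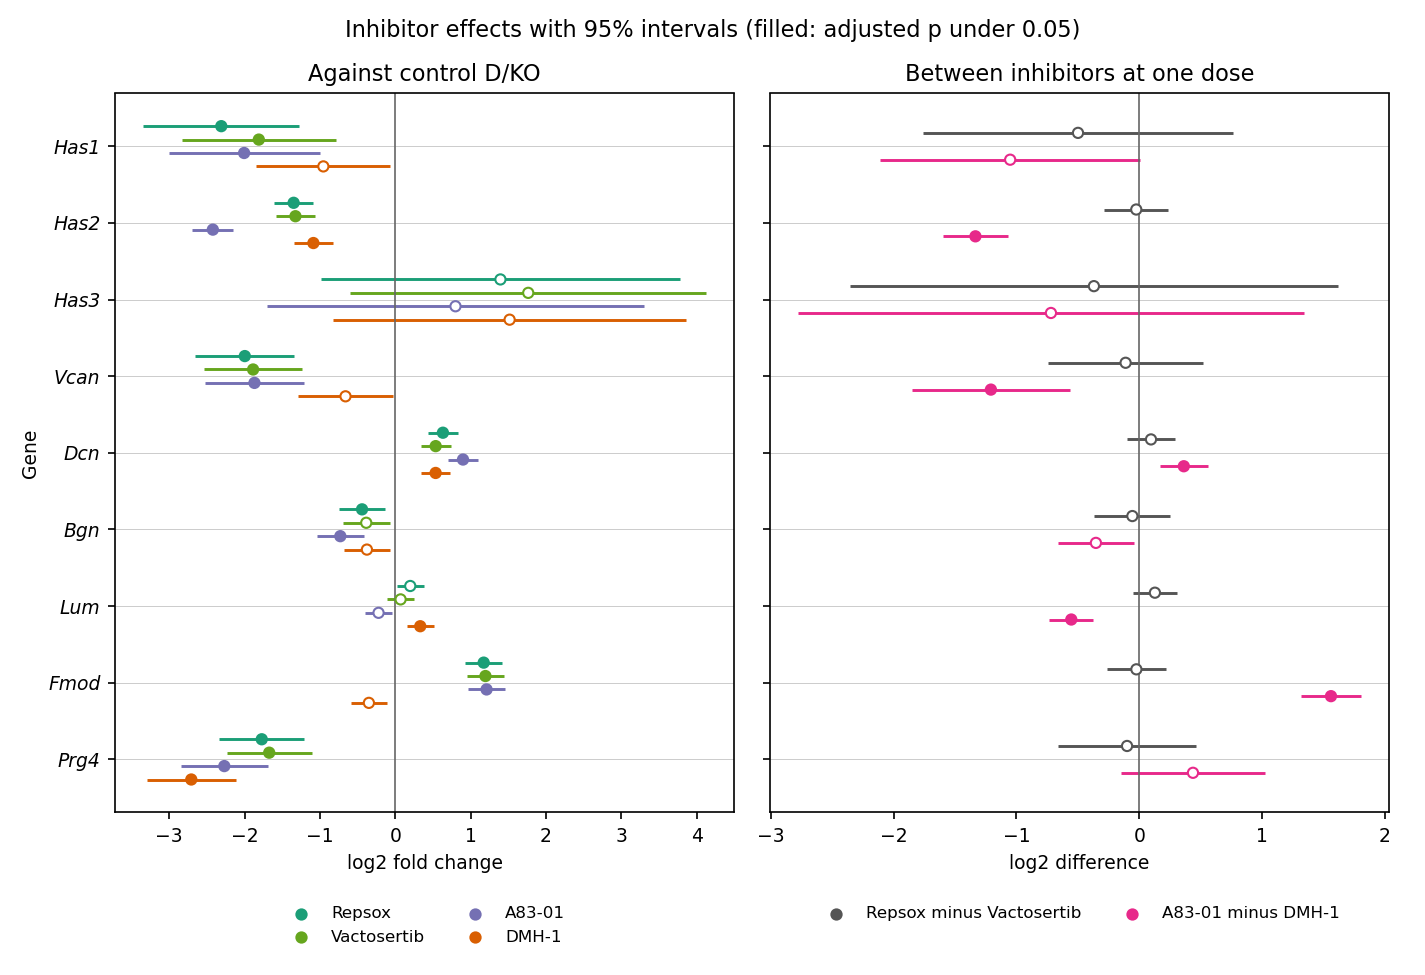
Log2 fold change of 9 members with each inhibitor against control D/KO (left) and log2 difference between inhibitors used at the same dose (right), with 95% intervals on the x axis and genes on the y axis. Filled points passed an adjusted p of 0.05; Has2 lies below 0 with each of the 4 inhibitors, and all points of Repsox minus Vactosertib are open.

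WT skin fibroblasts against WT tail tip fibroblasts called 4 members (34.2% of 15652 genes). Dcn was at 374, 412 and 368 CPM in skin and 1782, 1757 and 1685 in tail tip, lower by 2.17 ± 0.11 (adjusted p = 5.67e-12), and Lum at 29.8, 26.0 and 22.8 against 103, 96.8 and 91.2, lower by 1.88 ± 0.11 (adjusted p = 6.88e-11). Has2 was at 227, 219 and 233 CPM in skin against 93.1, 108 and 97.2, higher by 1.2 ± 0.11 (adjusted p = 4.94e-08). None of the 3 overlapped between the sites. Without skin replicate 1, which stood apart, these values were -2.17, -2 and 1.18. Fmod was higher in skin by 0.59 ± 0.16 (adjusted p = 0.00638), lost without skin replicate 2 (0.43). Endothelial markers summed to 143 to 246 CPM in skin against 30.7 to 43.6 in tail tip, muscle markers to 107 to 137 against 16 to 21.2, cartilage markers to 63.2 to 87.3 against 139 to 145 and keratinocyte markers to 1.63 to 1.96 against 11.1 to 13.6. The part of these markers was not tested.

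The tail tip fibroblasts labelled TGFB have no control of their line in their table, so their levels are given with no test. Dcn was at 16.7, 19.0 and 22.2 CPM, Lum at 8.41, 10.8 and 9.39, Fmod at 29.4, 37.2 and 30.3 and Prg4 at 2.36, 2.88 and 3.25, each below every other library of that table. Has2 was at 95, 85.4 and 85.9 CPM and Bgn at 7024, 6725 and 6586. Day 0 libraries of the same genotype, sex and age label in the reprogramming table had Dcn at 1361, 1046 and 1055 CPM, but the tables were normalized apart. The 4 muscle markers summed to 1710 to 2050 CPM in these libraries against at most 137 in the other groups of that table. Acta1 reached 44405 counts in a library of that table, but Des 1860, Myod1 12 and Ckm 4, and their part was not tested.

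Genes around the family were read from lists of the pathway, and each count is to be set beside the share of all genes called, 27.9% higher and 26.2% lower at D/KO day 4 plus VC and 22.7% and 22% at WT day 4 plus VC. Of 11 tested further small leucine-rich proteoglycans, 1 rose and 8 fell at D/KO day 4 plus VC (median log2 fold change -1.76) and 2 rose and 6 fell at WT day 4 plus VC (-0.80). Among them Kera, keratocan, fell by 5.39 ± 0.54 in D/KO and Podnl1 by 3.58 ± 0.17. Against day 0 without VC, the values were -1.93 for Kera and -2.15 for Podnl1, both still called. Of 22 genes of chondroitin and dermatan sulfate synthesis, 4 rose and 15 fell at D/KO day 4 plus VC (median -0.82) and 3 rose and 16 fell in WT (-0.46). The sulfotransferase gene Chst3 went against its list, rising by 7.39 ± 0.37 in D/KO, from a mean of 0.21 to 36.3 CPM, and in WT going from a mean of 0.08 to one of 5.34 CPM. Of 14 heparan sulfate and other proteoglycan cores, 2 rose and 11 fell in D/KO plus VC, and those that rose were Srgn, the intracellular serglycin, by 6.95 ± 0.25, and Cspg4, the NG2 proteoglycan, by 3.74 ± 0.13. With day 0 without VC as the baseline, the D/KO values were 5.52 for Chst3, 6.75 for Srgn and 1.1 for Cspg4, each still called.

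Of 7 ADAMTS proteases that cut these proteoglycans, 1 rose and 5 fell at D/KO day 4 plus VC (median -2.14), with Adamts9 lower by 3.36 ± 0.23, and 0 rose and 4 fell in WT plus VC (-0.71). Of 11 hyaluronan receptors, binding and link proteins, 2 rose and 5 fell in D/KO plus VC and 2 rose and 3 fell in WT plus VC, and Lyve1, the hyaluronan receptor of lymphatic endothelium, fell by 5.62 ± 0.39 in D/KO, where endothelial markers were read at 226 to 268 CPM on day 0 plus VC and 467 to 667 on day 4 plus VC. Of 7 genes of sugar nucleotide supply, 2 rose and 4 fell in D/KO plus VC, with Gfpt2 up by 1.45 ± 0.16 and Gfpt1 down by 1.23 ± 0.11. Against day 0 without VC, Gfpt2 was at 0.291 (adjusted p = 0.0985), no longer called, and Gfpt1 at -1.33. Of 5 genes of hyaluronan turnover, 1 rose and 2 fell in D/KO plus VC, close to the shares of all genes called there (27.9% and 26.2%), and the transmembrane hyaluronidase Cemip2 was lower by 1.81 ± 0.20. With day 0 without VC as the baseline, D/KO day 4 plus VC was at -1.17 for Cemip2, -1.7 for Adamts9 and -6.42 for Lyve1. Each of these was still called.

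With inhibitors, among small leucine-rich proteoglycans Aspn, asporin, fell by 3.65 ± 0.13 with A83-01 and by 0.50 ± 0.11 with DMH-1, where 3 rose and 4 fell of 11 with A83-01 and 2 rose and 3 fell with DMH-1 (16.4% of genes higher and 16.2% lower with A83-01, 5.96% and 3.79% with DMH-1). Sugar nucleotide supply had 0 genes higher and 4 of 7 lower with A83-01, and Gfpt2, the fructose-6-phosphate amidotransferase that feeds hyaluronan synthesis, fell with all 4 inhibitors, by 1.38 ± 0.12, 1.4 ± 0.12, 1.82 ± 0.12 and 0.51 ± 0.12 with Repsox, Vactosertib, A83-01 and DMH-1. Gpc3, a heparan sulfate glypican, rose by 5.56 ± 0.22 with A83-01, from 0.36 to 17.5 CPM, and by 1.41 ± 0.27 with DMH-1, while Gpc1 fell by 1.78 ± 0.15 and 0.53 ± 0.14. Hyaluronan turnover had 0 of 5 genes called with A83-01 or DMH-1.

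Across the 12 reprogramming groups, likeness to each member was measured as Pearson's r of mean log2 CPM, as a description. The gene most like Fmod was Magee1 (r = 0.987), most like Lum Cpxm1 and Cap2 (0.974), most like Dcn Hoxb3os (0.971) and most like Bgn Dse (0.966), the dermatan sulfate epimerase. Has1 was most like B230319C09Rik (0.949), Has2 Kremen1 (0.92), Vcan Ppard (0.911), Prg4 Dpp9 (0.905) and Has3 2810454H06Rik (0.905). Within the family the highest r was 0.90, between Bgn and Fmod, and Has1 and Has2 had 0.73. The 12 points share lines, controls and normalization.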

How the data were processed

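Gene expression was measured by RNA-seq in 60 libraries of mouse fibroblasts, 36 of the reprogramming experiment and 24 of the inhibitor experiment. Per the labels and the study's methods, the authors made the deposited counts from paired-end reads with FastQC, Trim Galore, HISAT2 on GRCm39 and featureCounts; they are raw whole-number counts per gene, and the annotation release, the strand setting and the tool versions are not given in the sources used here. Gene symbols were taken from GENCODE M39 for 56236 of 56980 identifiers, which held 99.97% and 99.98% of counts. Samples were grouped by the labels.

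Counts were filtered with filterByExpr (minimum count 10, minimum total 15), scaled by TMM and tested with the quasi-likelihood F-test of edgeR 4.0.16 in R 4.3.3, with Benjamini-Hochberg adjustment over all genes tested. All 36 reprogramming libraries shared 1 fit (15832 genes). The inhibitor comparisons used the 18 libraries of the D/KO groups and WT tail tip control (15164 genes), and skin against tail tip used all 24 (15652 genes). The VC and line comparisons of change are interaction terms of those fits. Log2 CPM used a prior count of 2. Alternatives were DESeq2 1.42.0, DESeq2 size factors in edgeR, CPM by total count for levels, no filter or a minimum of 10 counts per library, fits of the compared groups alone or of all 24 inhibitor libraries, day 0 without VC as the baseline, and each library left out. The code was tested on simulated data.

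At 16538374 to 30599138 counts a library, precision of members with few counts (Has1, Has3 and Acan) is low. Named pathway genes are at most the 2 of each list with the largest absolute log2 fold change among those called, ranked on day 4 plus VC of both lines for reprogramming and on A83-01 and DMH-1 for inhibitors. The members, lists and tests were chosen with earlier results of these data known.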

Additional observations from a re-analysis of the deposited data

Results flagged for a closer look

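Changes from day 0 differed between the D/KO and WT lines in 14 tests of an interaction by edgeR, each given as the D/KO change minus the WT change on the log2 scale. The lines also differ in sex and age, and the part of these in the differences cannot be told apart. Without VC, Lum differed by -0.93 on day 2 and -1.43 on day 4, and with VC by -1.53 on day 2 and -2.15 on day 4 (-0.525 and -1.15 against day 0 without VC, both called). Prg4 differed by -1.60 at day 4, where it fell in D/KO and rose in WT, and by -0.87 at day 2 plus VC (-1.98 against day 0 without VC, called). Vcan differed by -1.17 at day 4. With VC, Dcn differed by -1.35 on day 2 and -1.68 on day 4, but with day 0 without VC as the baseline by 0.09 and -0.25, neither called. With VC, Fmod differed by -0.77 on day 2 and -0.80 on day 4, and both calls were lost without D/KO day 0 plus VC replicate 2 (-0.52 and -0.55) but were -1.50 and -1.53 with day 0 without VC as the baseline. With VC, Has2 differed by -1.13 on day 2 and -1.96 on day 4, which became -0.63 and -1.46 without D/KO day 0 plus VC replicate 3, both still called. Bgn differed by -0.81 at day 4 plus VC.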

How the results depend on the processing

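No paired analysis was possible because the labels give no number that ties a library of 1 group to a library of another. With day 0 without VC as the baseline, 9 values that were called on either baseline turned: Dcn in D/KO plus VC (1.14 at day 2, 0.90 at day 4), Lum in D/KO at day 2 plus VC (0.353), Has1 in D/KO at day 4 plus VC (-0.664), Lum in WT plus VC (0.878 at day 2, 0.354 at day 4), Cemip2 in WT plus VC (0.26 at day 2, 0.019 at day 4) and the line difference of Dcn at day 2 plus VC (0.0867). Values called on neither baseline are not counted there, and some of them changed sign, such as Has3 at D/KO day 2 plus VC (-0.2565 to 0.71). Has2 at D/KO day 2 plus VC ranged from -0.224 to 0.488 with 1 library left out. The cause was not tested. With 1 library left out, members called ranged from 2 to 5 at D/KO day 2, from 1 to 4 at WT day 2, from 1 to 2 for WT day 4 against day 2, from 3 to 4 for the same plus VC, and from 3 to 5 for the WT VC difference at day 4. WT day 4 against day 2 plus VC had 3 members called with at least 10 counts in every library. VC alone in WT had 2 with no filter and 2 with the compared groups alone, the WT VC difference at day 2 had 2 and 1, and the line difference at day 4 had 5 with no filter. Over all genes, fitting the compared groups alone called 6400 against 3880 genes at WT day 4, 2523 against 4140 for VC alone in D/KO, 2813 against 4252 for the D/KO and 3754 against 2427 for the WT VC difference at day 4, 2256 against 3820 with Repsox and 2591 against 5348 for skin. Leaving out 1 library called as few as 970 genes against 1515 for D/KO day 4 against day 2, 1067 against 1672 at WT day 2, 1103 against 3406 for WT day 4 against day 2, 1731 against 3176 for the same plus VC and 847 against 1479 with DMH-1. Of the values of members under all alternatives, 3324 kept their call or its absence, 66 gained and 140 lost a call, and 8 turned with a call in either fit. Values that changed sign without a call in either fit are among the 3324. Counts of 0 to 36 a library limit Has3, and Has1 has a median of 54 and a lowest count of 1.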
